A study of Mus musculus with 16 samples.

Results

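Heat shock proteins and chaperones were followed in the mouse hippocampus after chronic treatment with THC (Δ9-tetrahydrocannabinol, the compound of cannabis that most alters the mind) or vehicle. The genes were taken by symbol: those starting with Hsp and a, b, d, e, h or a digit, with Dnaj, or with Cct or Bag and a number, without Hspg2. On the array, 155 probes of 83 genes carried such a symbol. For each gene the probe with the highest mean over the 16 arrays was kept if it was detected (detection p under 0.05) on at least 3 arrays, which left 70 genes of the 12020 genes tested. They were 2 Hsp90 genes, 12 genes of the Hsp70 and Hsp110 family, the Hsp60 and Hsp10 pair, 7 subunits of the cytosolic chaperonin, 4 small heat shock proteins, 3 Dnaja, 9 Dnajb and 23 Dnajc genes, 6 Bag genes, and Hspbp1 with Hspbap1.

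Chaperones bind unfolded stretches of other proteins and keep them from clumping. Hsp70 does so in cycles of ATP hydrolysis. J proteins (Dnaja, Dnajb and Dnajc) bring it substrates and speed hydrolysis, and nucleotide exchange factors (the Hsp110 proteins, Bag proteins and Hspbp1) make it let go. Hsp90 finishes the folding of kinases and steroid receptors, chaperonins enclose a substrate in a ring, and small heat shock proteins hold unfolded proteins without ATP. In cells under stress the transcription factor Hsf1 raises part of this set, and neurons depend on others all the time, for instance to strip clathrin from synaptic vesicles.

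All mice were male C57BL/6J. The THC mice received a daily dose of 3 mg per kg over 28 days by osmotic pump under the skin, and the vehicle mice received a mix of ethanol, cremophor and saline in the same way. Mice were 2 or 12 months old, went through behaviour tests from day 33 to day 41, and were killed on day 46, so every hippocampus was taken after the drug had been stopped. The groups were 12-month THC mice (5 arrays), 12-month vehicle mice (5 arrays), 2-month THC mice (3 arrays) and 2-month vehicle mice (3 arrays). Total RNA was hybridised as biotin-labelled cRNA, with 1 Illumina bead array per sample. The labels list separate samples, and nothing in them ties arrays to single animals, so a p-value below measures the spread between these samples.

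Between 41.1% and 45.9% of the probes were detected per array, and arrays of a group correlated at Pearson r 0.9589 to 0.9895 over tested probes. The 16 arrays lay on 4 slides, as the array barcodes in the labels show. The 4 arrays of slide 1 stood apart from the other 12 for many probes. Slide 1 held 1 array of 12-month THC mice, 2 of 12-month vehicle mice, 1 of 2-month vehicle mice and none of 2-month THC mice, slide 2 held none of 12-month THC mice, and slide 3 held THC arrays only. Slide and treatment are thus partly tied together, and results are given below also with the slide as a block and without slide 1. Hippocampal markers were present: Prox1 and C1ql2 of dentate granule cells averaged 9.31 to 10.25 on the log2 scale in 12-month THC mice, 7.61 to 9.82 in 12-month vehicle mice, 8.99 to 10.14 in 2-month THC mice and 7.14 to 9.69 in 2-month vehicle mice. Tdo2 of the same list and Neurod6 of the pyramidal cell list were detected on fewer than 3 arrays. Choroid plexus markers (8 of 10 tested) averaged 5.04 to 8.87 in 12-month THC mice, 5.08 to 7.44 in 12-month vehicle mice, 5.57 to 6.78 in 2-month THC mice and 5.93 to 9.51 in 2-month vehicle mice. In whole tissue, fewer cells of a type and less RNA per cell cannot be told apart.

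Values below are normalized intensities on the log2 scale, so a step of 1 is a factor of 2. Probes differ in how well they hybridise, so a gene's value is set only against its own values on other arrays. Of the 70 genes, 53 were detected on all 16 arrays and 17 on some of them. Hspa8, the constitutive cytosolic Hsp70 that strips clathrin coats, averaged 13.40 ± 0.15 in 12-month THC mice, 13.30 ± 0.10 in 12-month vehicle mice, 13.46 ± 0.14 in 2-month THC mice and 13.43 ± 0.09 in 2-month vehicle mice (SD, n = 5, 5, 3 and 3). Hspa1l, a relative best known from testis, was detected on 4 arrays only. Cct2 was detected on 5 arrays, and Dnajb3 and Dnajc9 on 7 each. Dnajc25 was detected on 8, Hspa12a on 9, Hspa13 on 10, Hspa4 and Hspb3 on 11, Hspa5 on 12 and Dnaja1 on 13. Bag2, Dnajb13, Dnajb4 and Dnajc14 were detected on 14, and Cct5 and Cct7 on 15. Differences of these genes rest partly on signals near background. Outside the detection rule were Cct6b and Hspb2 with 2 arrays, Dnajc5b with 1, and 10 genes with 0 (Cct8l1, Dnajb14, Dnajb7, Dnajb8, Dnajc5g, Hspa14, Hspa1b, Hspb11, Hspb7 and Hspb9). Hsp90ab1, Dnajb11 and Dnajc13 were not analysed here.

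**Figure D1:**
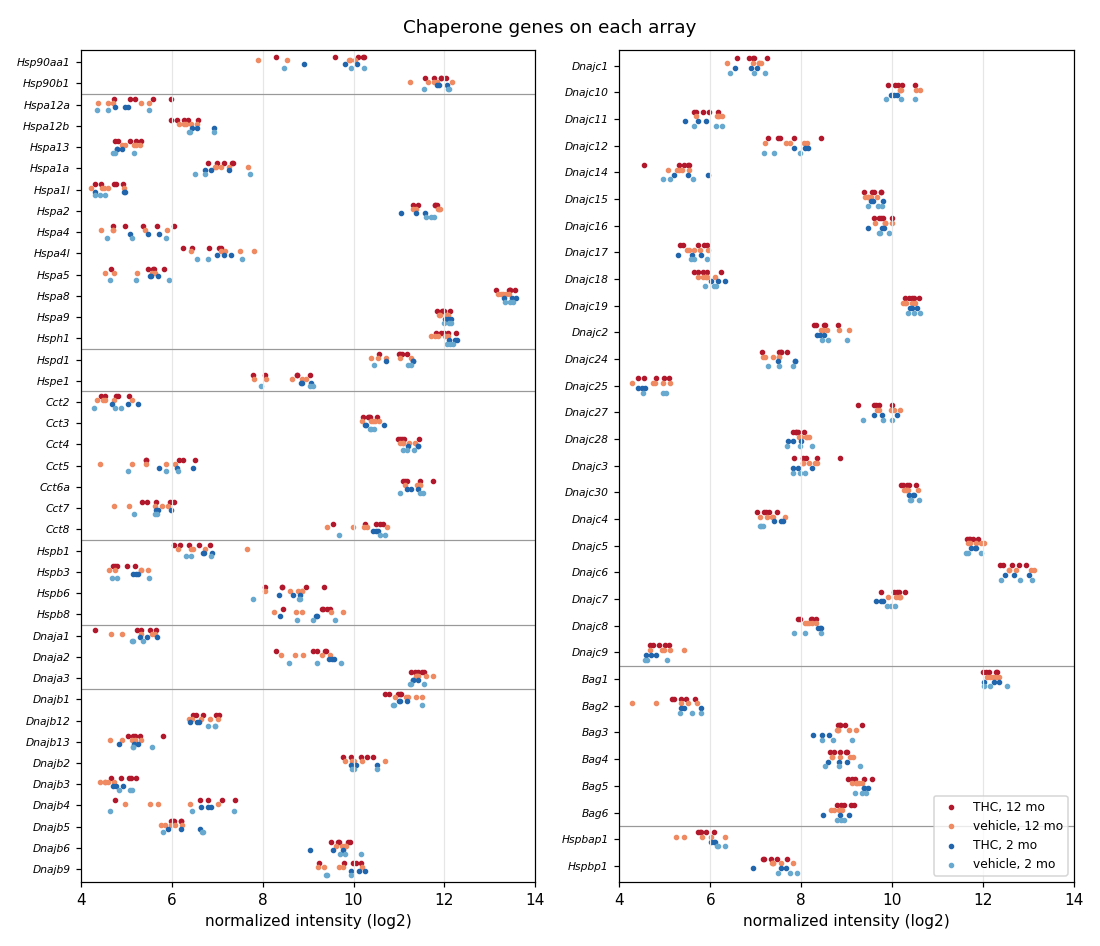
Normalized intensity (log2, horizontal axis) of the 70 chaperone genes on each of the 16 arrays, 1 point per array, coloured by group, with lines between families. Hspa8 sits near 13 on every array, and Hsp90aa1 and Dnajb4 have the widest scatter; positions of different genes are not comparable because probes differ.

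The spread between arrays of a group was much the same as for other probes: the residual SD had a median of 0.250 over the 70 genes and of 0.256 over the 22625 tested probes. The most variable were Dnajb4 at 0.95, Hsp90aa1 at 0.87, Hspa4, Cct5, Hspe1 and Hspb8. The steadiest were Hspa9, the Hsp70 of the mitochondrial matrix, at 0.09, Dnajc19, a J protein of the mitochondrial import machinery, and Dnajc30.

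Promoters of the genes were searched for the binding sequence of heat shock factors, because members that share it can be set beside each other. RefSeq promoters (GRCm38.p6, 250 bases before to 50 after the start) were found for 58 of the 70 genes, with 77 start sites. A heat shock element is a run of inverted nGAAn units. The version of 3 units was searched as GAANNTTC followed by NNGAA, or as TTCNNGAA followed by NNTTC, on both strands. It was found in 6 of the 77 promoters, of Dnajb6, Hspd1, Hspe1 and Hsph1, which is 7.79%, against 0.603% of all 32851 promoters in the table. These 6 promoters overlap: the matched starts of Dnajb6 share an element, as do those of Hsph1, and as do Hspd1 and Hspe1. The share thus counts starts and not separate elements. The version of 2 units (GAANNTTC or TTCNNGAA), which every element of 3 units contains, was in 19 of the 77 (24.7%, against 15.1% of all). The endoplasmic reticulum stress element, searched as CCAAT and CCACG with 9 free bases between them on both strands, was in 3 of the 77 (3.9%, against 0.119% of all), of Hspa5, Hsp90b1 and Dnajc3. A match is a run of letters and was not shown to be bound.

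Hsph1 and Hspe1 are printed whole because both belong to the heat-inducible genes and carry the element of 3 units. Capitals mark every base that lies in a match: 13 bases in Hsph1, and 18 in Hspe1, where 2 overlapping matches make a run of 4 inverted units. The first covers chr5:149636266-149636565 on the minus strand, and the second covers chr1:55087898-55088197 on the plus strand.
Hsph1: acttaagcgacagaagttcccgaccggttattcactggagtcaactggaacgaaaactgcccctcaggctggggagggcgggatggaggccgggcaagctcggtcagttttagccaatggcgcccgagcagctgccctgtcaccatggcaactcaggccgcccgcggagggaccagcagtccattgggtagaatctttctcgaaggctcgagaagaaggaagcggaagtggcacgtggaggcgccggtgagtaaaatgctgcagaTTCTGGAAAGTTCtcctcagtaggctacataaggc
Hspe1: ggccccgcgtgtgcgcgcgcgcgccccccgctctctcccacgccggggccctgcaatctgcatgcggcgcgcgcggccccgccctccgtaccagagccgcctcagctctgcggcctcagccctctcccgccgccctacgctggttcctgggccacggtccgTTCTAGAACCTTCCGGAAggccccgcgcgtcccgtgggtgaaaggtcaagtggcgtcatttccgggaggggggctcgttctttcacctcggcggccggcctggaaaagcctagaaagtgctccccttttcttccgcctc
Hspe1, the Hsp10 lid of the mitochondrial chaperonin, and Hspd1, its Hsp60 barrel, lie head to head. Their promoter windows share 285 of 300 bases, and the same element serves as a match for both, 89 bases before the start of Hspe1 and 144 before that of Hspd1. Dnajb6 has the element 46 bases before 1 of its starts. The matched elements are shown in capitals for Dnajb6 at chr5:29735852-29735864 (plus strand), and for the endoplasmic reticulum chaperones Hspa5 at chr2:34772025-34772043 (plus), Hsp90b1 at chr10:86705638-86705656 (minus) and Dnajc3 at chr14:118937827-118937845 (plus).
Dnajb6: GAATCTTCCGGAA
Hspa5: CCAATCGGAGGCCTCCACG
Hsp90b1: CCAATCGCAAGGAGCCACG
Dnajc3: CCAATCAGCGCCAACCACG

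**Figure D2:**
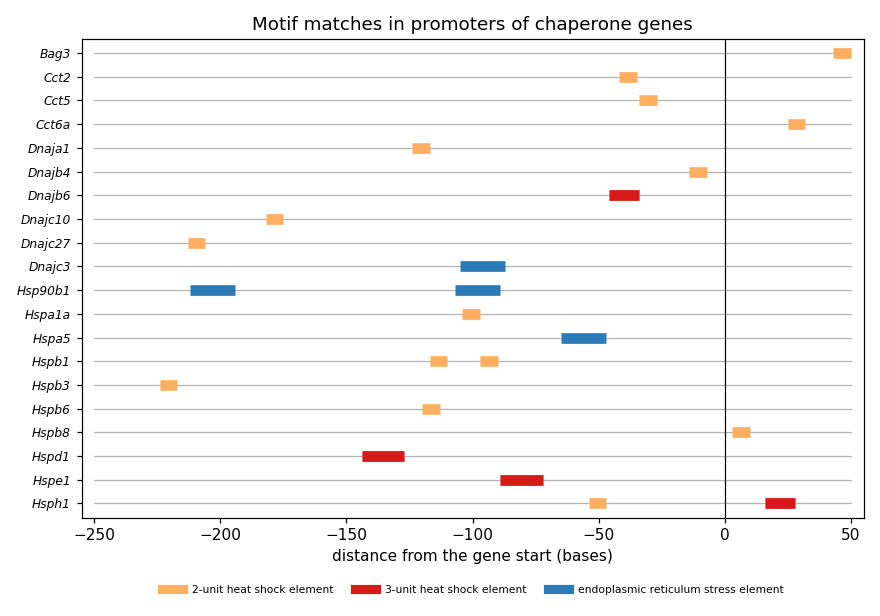
Position of motif matches (horizontal axis, bases from the gene start, with the start as a vertical line) in the promoters of chaperone genes that hold a match, 1 row per gene. Red bars are heat shock elements of 3 units, found for Dnajb6, Hspd1, Hspe1 and Hsph1; orange bars are elements of 2 units and blue bars endoplasmic reticulum stress elements, with a pair of them for Hsp90b1.

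Across the 6 comparisons and the test of any difference among the 4 groups, 0 of the 70 chaperone genes passed an adjusted p of 0.05 in limma. At an unadjusted p under 0.05, 2 genes were called for age in vehicle mice (4.56% of all tested probes were), 2 for THC at 12 months (4.77% of all), 2 for THC at 2 months (6.12% of all), 2 for the difference of the THC responses between ages (5.21% of all), 3 for age in THC mice (7.33% of all) and 0 for 12-month THC against 2-month vehicle mice (4.48% of all). In the test of any group difference 3 were called, against 6.26% of all probes. A share of 2 in 70 genes is 2.86% and of 3 in 70 is 4.29%, so each count was below the share among all probes. Over all 22625 probes, 0 passed the adjusted threshold in each comparison, with the exceptions of 1 (0.00442%) for 12-month THC against 2-month vehicle mice and 1 for any difference. When the slide was added as a block, 0 of the 70 genes passed again, beside 0.137% of all probes for THC at 12 months, 0.0442% for any difference, 0.00884% each for age in vehicle mice and for 12-month THC against 2-month vehicle mice, and 0% in the other comparisons. The median standard error of a log2 difference was 0.16 for THC at 12 months, 0.18 for age and 0.20 for THC at 2 months, which sets how large a difference had to be to be told from 0.

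**Figure D3:**
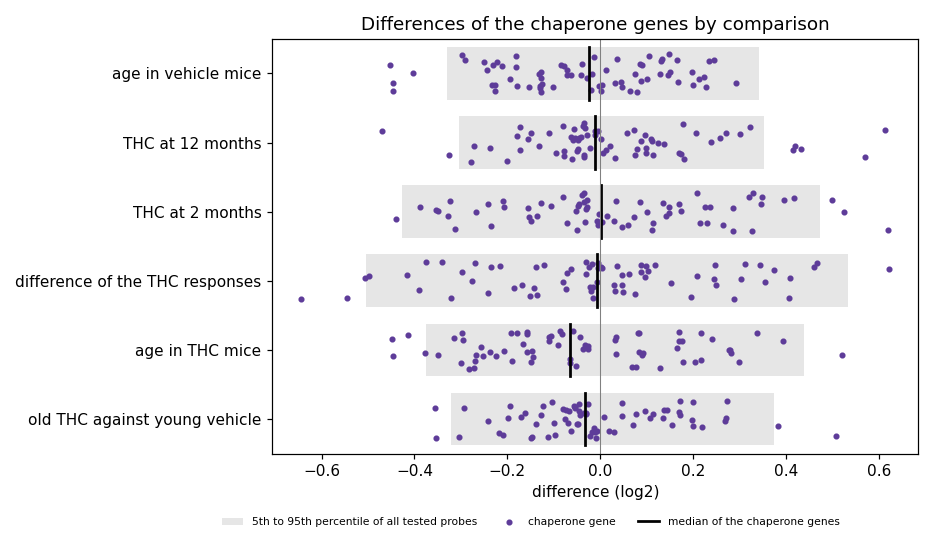
Log2 difference (horizontal axis) of each of the 70 chaperone genes in the 6 comparisons, 1 point per gene, with the median as a black bar and the range from the 5th to the 95th percentile of all tested probes in grey. The medians lie between -0.07 and 0.00, and most genes lie inside the grey range.

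THC at 12 months set 12-month THC mice against 12-month vehicle mice. Of the 70 genes 33 were higher and 37 lower in THC mice, with a median of -0.01, beside 48.8% higher and a median of -0.005 among all probes. None of the 70 had groups that did not overlap (0.628% of all probes did). The smallest p were those of Dnajb3, a J protein known from mouse testis, and of Dnajb1, the main heat-inducible partner of Hsp70 in the cytosol. Dnajb3 read 4.89, 5.05, 5.21, 5.10 and 4.65 in 12-month THC mice, against 4.41, 4.52, 4.60, 4.54 and 4.73 in 12-month vehicle mice. It was detected on 3 of 5 THC arrays and on 0 of 5 vehicle arrays, so only a bound on the means can be given. With each vehicle array set to its lowest detected signal, the mean of Dnajb3 was 1.09-fold higher in THC mice. That value takes no account of the spread between arrays. The fitted log2 difference was 0.42 ± 0.12 (SE, adjusted p = 0.916). With the slide as a block the difference was 0.29 (adjusted p = 0.445), and within slide 4 it was -0.08. Dnajb1 read 10.98, 10.77, 11.02, 10.69 and 11.05 in 12-month THC mice, against 11.16, 11.37, 10.90, 11.19 and 11.51 in 12-month vehicle mice. The groups overlapped, with 3 THC arrays above the lowest vehicle array, and the difference was -0.33 ± 0.14 (SE, adjusted p = 0.916). It had the same sign within slide 1 (-0.28) and slide 4 (-0.46), and was -0.28 with the slide as a block (adjusted p = 0.576).

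The other genes taken by the size of p at 12 months, with 0 past the unadjusted threshold of 0.05, follow with their values. Hspa4l, an Hsp110 exchange factor, read 7.08, 6.45, 6.82, 6.24 and 7.04 in THC mice, against 7.50, 7.81, 6.41, 7.17 and 7.08 in vehicle mice, a difference of -0.47 ± 0.25 (adjusted p = 0.916) that was -0.25 without slide 1. Cct5, a chaperonin subunit, read 5.43, 6.51, 6.15, 6.24 and 5.44 in THC mice, against 5.12, 4.42, 6.07, 5.88 and 5.44 in vehicle mice, a difference of 0.57 ± 0.31 (adjusted p = 0.916) that was 0.29 without slide 1. Both genes read differently on slide 1, as described further on. Cct7 differed by 0.27 ± 0.21 and by 0.005 without slide 1, and Hspa12a, a distant Hsp70 relative, by 0.42 ± 0.26 and by 0.32 without slide 1. Hspa12a was detected on 4 of 5 THC and 2 of 5 vehicle arrays, so its difference rests partly on signals near background. Dnajb13, a J protein of sperm flagella, differed by 0.26 ± 0.17, and Bag6, which sorts faulty membrane proteins for destruction, by 0.18 ± 0.12. Lower values were those of Dnajc27 at -0.28 ± 0.16, Dnajc11, which sits at the mitochondrial membranes, at -0.24 ± 0.15, Dnajc28 at -0.15 ± 0.11, and Dnajc2, a J protein of the ribosome, at -0.18 ± 0.15. Unadjusted p of these genes ran up to 0.24. In the fit with the slide block, 4 other genes had an unadjusted p under 0.05, beside 11.5% of all probes: Hspb1, Dnajc24, Dnajc3 and Hspb6, with differences of -0.56, 0.34, 0.33 and 0.50 and adjusted p of 0.315 or more. Slides 1 and 4 are the ones that hold both 12-month groups, each with 1 THC array. Those 2 THC arrays averaged 8.53 and 8.87 for choroid plexus markers, against 5.04 to 5.74 on the other 3 THC arrays, and 8.51 and 8.07 for striatum markers (6 of 8 tested), against 7.07 to 7.38. Dnajc3 read 8.85 and 8.35 and Hspb6 9.35 and 8.96 on them, above the other 3 THC arrays. The part of these markers in the differences was not tested.

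THC at 2 months set 2-month THC mice against 2-month vehicle mice. Of the 70 genes 35 were higher and 35 lower in THC mice, with a median of 0.001, beside 49.6% higher among all probes. For 6 genes the groups did not overlap, which is 8.57%, beside 11.6% of all probes. Dnajc4, a J protein of little-known function, read 7.56, 7.60 and 7.40 in 2-month THC mice, against 7.17, 7.09 and 7.11 in 2-month vehicle mice. The 3 THC arrays lay above the 3 vehicle arrays, and the difference was 0.40 ± 0.15 (SE, adjusted p = 0.781). It was 0.46 within slide 2, 0.29 within slide 4 and 0.34 with the slide as a block (adjusted p = 0.468). Dnajb6, which keeps polyglutamine proteins from aggregating, read 9.55, 9.76 and 9.05 in 2-month THC mice, against 9.82, 9.70 and 10.16 in 2-month vehicle mice. The groups overlapped, since 1 THC array lay above the lowest vehicle array. The difference was -0.44 ± 0.18 (SE, adjusted p = 0.781), and another probe of Dnajb6 gave 0.03.

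Other J proteins at 2 months were taken by the same rule. Dnajb9, a J protein that helps Hspa5 in the endoplasmic reticulum, read 9.95, 10.25 and 10.11 in THC mice, against 9.41, 9.94 and 9.39 in vehicle mice, a difference of 0.53 ± 0.25 (adjusted p = 0.781). Its groups did not overlap, with the lowest THC array next to the highest vehicle array. Dnajb12, of the endoplasmic reticulum membrane, read 6.56, 6.39 and 6.60 in THC mice, against 6.96, 6.96 and 6.80 in vehicle mice, a difference of -0.39 ± 0.19 (adjusted p = 0.781), again without overlap. Dnajc12, known in humans as a partner of the enzymes that hydroxylate aromatic amino acids, read 8.08, 7.84 and 8.14 in THC mice, against 7.96, 7.41 and 7.18 in vehicle mice. The groups overlapped, and the difference was 0.50 ± 0.28 (adjusted p = 0.781) and 0.79 with the slide as a block (adjusted p = 0.346).

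Smaller differences at 2 months were those of Dnajc8, of the splicing machinery, at 0.29 ± 0.16, Cct2 at 0.35 ± 0.22, Hspa2, an Hsp70 abundant in testis and present in brain, at -0.35 ± 0.20, Bag3 at -0.32 ± 0.19 and Dnajc7, which links Hsp70 with Hsp90, at -0.24 ± 0.14. Hspa2 and Dnajc7 were among the 6 genes without overlap, and Hspbap1 was the last of them. Hspa1l and Dnajc25 were also among the genes with the smallest p, but Hspa1l was detected on 0 of 3 vehicle arrays and Dnajc25 on 0 of 3 THC arrays, so no fold is given. Markers of CA1 and CA3 pyramidal cells (5 of 6 tested) averaged 8.88 to 9.04 in 2-month THC mice, against 9.27 to 9.69 in 2-month vehicle mice. Thalamus markers (6 of 7 tested) averaged 7.43 to 9.37 against 6.99 to 7.62 in the same groups, with overlap. The part of these markers in the differences above was not tested.

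The THC responses at both ages were compared by the difference of the differences, 12 months minus 2 months. The genes were higher in 33 and lower in 37 cases, with a median of -0.01, beside 48.5% higher among all probes. In 2-month mice Dnajb3 read 4.93, 4.78 and 4.70 after THC, against 5.12, 4.84 and 5.07 after vehicle. It was detected on 0 of 5 12-month vehicle arrays and on 1 of 3 2-month THC arrays, so its fitted value of 0.62 ± 0.19 (SE, adjusted p = 0.949) rests on signals near background and gives no measured size. Dnajc4 gave -0.51 ± 0.19 (SE, adjusted p = 0.949): its values in 12-month mice were 7.02, 7.22, 7.30, 7.18 and 7.46 after THC, against 7.10, 7.26, 7.37, 7.64 and 7.36 after vehicle. Dnajb12 gave 0.46 ± 0.24, Dnajb6 0.41 ± 0.23, Dnajc8 -0.34 ± 0.20 and Hspa4l -0.64 ± 0.40, each with an unadjusted p above 0.05.

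Age in vehicle mice set 12-month vehicle mice against 2-month vehicle mice. Of the 70 genes 31 were higher and 39 lower at 12 months, with a median of -0.02, beside 49.5% higher and a median of -0.002 among all probes. Dnajb3 was the only gene of the 70 without overlap (1.43%, beside 2.66% of all probes): it read 4.41, 4.52, 4.60, 4.54 and 4.73 at 12 months, against 5.12, 4.84 and 5.07 at 2 months. It was detected on 0 of 5 arrays at 12 months and on 3 of 3 at 2 months, so only a bound on the means can be given. With each 12-month array set to its lowest detected signal, the mean of Dnajb3 was 1.12-fold lower at 12 months. That value takes no account of the spread between arrays. The fitted difference was -0.45 ± 0.14 (SE, adjusted p = 0.936). The sign was the same within slides 1, 2 and 4, at -0.65, -0.26 and -0.34. Another probe of Dnajb3 gave -0.11. Hspbap1, a protein named for its binding to Hspb1, read 5.82, 6.32, 6.02, 5.42 and 5.25 at 12 months, against 6.16, 6.33 and 6.15 at 2 months. At 12 months 2 arrays were below the rest, and 1 was above 2 of the 3 arrays at 2 months, and the difference was -0.45 ± 0.19 (SE, adjusted p = 1).

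Other low p in age were those of Dnajb5 at -0.40 ± 0.20, Bag2, which holds back the ubiquitin ligase Stub1, at -0.45 ± 0.25 and -0.04 without slide 1, Dnajb12 at -0.24 ± 0.17, and Hsph1, an Hsp110 exchange factor. Hsph1 read 11.87, 11.71, 11.80, 12.01 and 12.07 at 12 months, against 12.12, 12.18 and 12.05 at 2 months, with 1 array at 12 months above the lowest at 2 months and a difference of -0.23 ± 0.13 (adjusted p = 1). Higher at 12 months were Dnajc9, a histone chaperone, at 0.29 ± 0.17 (and 0.06 without slide 1), Dnajc4 at 0.22 ± 0.13, Hspa13 at 0.23 ± 0.16, Dnaja3, a mitochondrial J protein, at 0.15 ± 0.13, Dnajc3, a J protein inside the endoplasmic reticulum, at 0.21 ± 0.19, and Dnajc27 at 0.20 ± 0.19. Markers of meninges and fibroblasts (8 of 8 tested) averaged 7.65 to 8.08 in 12-month vehicle mice, against 6.91 to 7.52 in 2-month vehicle mice, and thalamus markers (6 of 7 tested) averaged 7.71 to 8.52 against 6.99 to 7.62 in the same groups. Their part in the differences above was not tested.

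Age in THC mice set 12-month THC mice against 2-month THC mice. Here 27 genes were higher and 43 lower at 12 months (61.4%, beside 53.2% of all probes), with a median of -0.07, beside -0.02 for all probes. For 3 genes the groups did not overlap (4.29%, beside 6.37% of all probes). Bag3, which steers damaged proteins to selective autophagy together with Hspb8, had the lowest p of all chaperone genes in age in THC mice. It read 9.34, 8.81, 8.85, 8.96 and 8.85 in 12-month THC mice, against 8.46, 8.61 and 8.26 in 2-month THC mice. The 5 arrays at 12 months lay above the 3 at 2 months, and the difference was 0.52 ± 0.17 (SE, adjusted p = 0.461). Within slides 3 and 4 it was 0.26 and 0.59, and with the slide as a block 0.43 (adjusted p = 0.287). In vehicle mice Bag3 read 9.20, 8.80, 8.81, 8.80 and 9.05 at 12 months, against 9.12, 8.46 and 8.71 at 2 months, with overlap and a difference of 0.17 ± 0.17. Dnajc7 read 10.11, 10.04, 9.77, 10.29 and 10.15 in 12-month THC mice, against 9.75, 9.80 and 9.64 in 2-month THC mice, with 1 array at 12 months inside the range at 2 months and a difference of 0.34 ± 0.13 (SE, adjusted p = 0.534). Hspa12b, an Hsp70 relative of blood vessels, read 6.36, 6.27, 6.12, 5.99 and 6.58 in 12-month THC mice, against 6.44, 6.55 and 6.94 in 2-month THC mice, with overlap and a difference of -0.38 ± 0.17 (SE, adjusted p = 0.651). Dnajb6 differed by 0.28 ± 0.16, Dnajc4 by -0.28 ± 0.13 and Dnajc18 by -0.30 ± 0.14. Dnajc8 and Dnaja2, the other genes without overlap, were lower at 12 months.

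**Figure D4:**
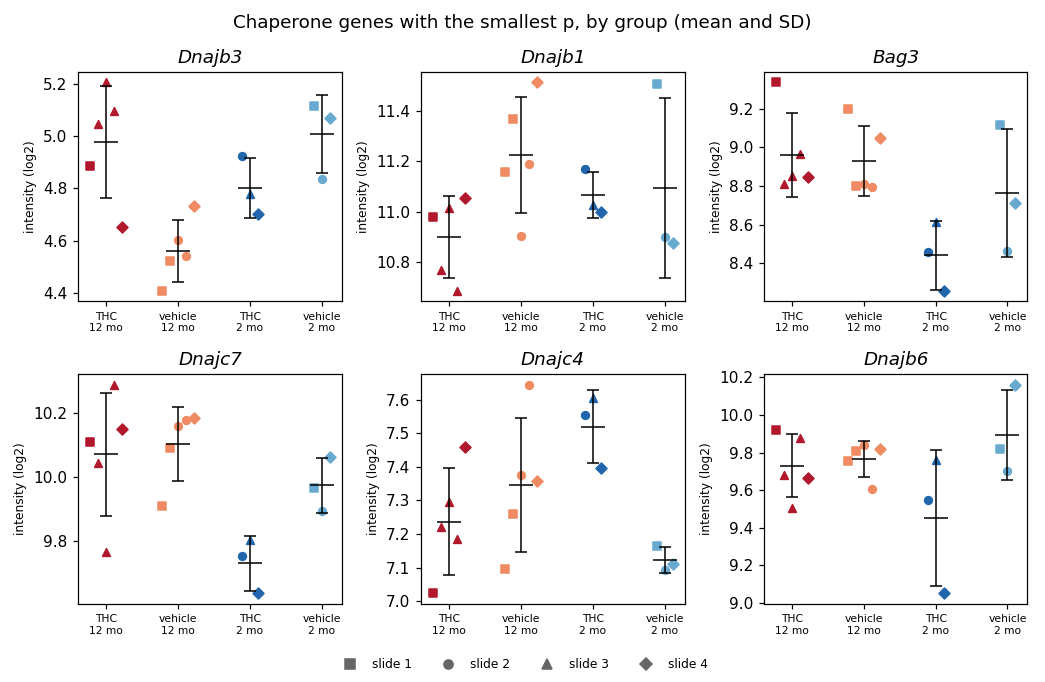
Normalized intensity (log2, vertical axes, each with its own range) of 6 chaperone genes by group, 1 point per array with the symbol giving the slide, and the mean and SD of each group as bars. Bag3 in 12-month THC mice lies above all 3 arrays of 2-month THC mice, and Dnajb3 in 12-month vehicle mice lies below all 3 arrays of 2-month vehicle mice.

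The last comparison set 12-month THC mice against 2-month vehicle mice. It shares arrays with the others, and its own values were 26 genes higher and 44 lower at 12 months after THC (62.9%, beside 51.3% of all probes), with a median of -0.03. In the fit with the slide block 36 were higher and 34 lower, beside 48.4% higher among all probes. Hspbp1, an exchange factor of Hsp70, differed by -0.35 ± 0.18, Hspbap1 by -0.36 ± 0.19 and Hspa12b by -0.30 ± 0.17. Hspa12a differed by 0.51 ± 0.30, Dnajb9 by 0.27 ± 0.23 and Dnajc3 by 0.27 ± 0.19, with unadjusted p of 0.0673 or more in all 6. After adding the slide block Dnajc3 differed by 0.53 (adjusted p = 0.19), with 0.77 within slide 1 and 0.52 within slide 4. Both within-slide values rest on the 2 THC arrays with high choroid plexus and striatum markers named above, whose part was not tested. In the test of any difference among the 4 groups the smallest p were those of Dnajb3 (adjusted p = 0.729), Bag3 (adjusted p = 0.793), Dnajc7 (adjusted p = 0.796), Dnajc4, Hsph1 and Hspbap1, and the smallest adjusted p was 0.729.

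By family, the inducible heat shock genes gave 12 tested of 14 listed. For THC at 12 months 7 were higher and 5 lower with a median of 0.02. Of the 12 genes, 1 (Dnajb1) had an unadjusted p under 0.05, beside 4.77% of all probes. For THC at 2 months 9 were higher and 3 lower (0.11), and for age in vehicle mice 6 were higher and 6 lower (-0.06). For age in THC mice 3 were higher and 9 lower (-0.18). The counts by list, here and below, were taken without a slide block. Slide 1 held 1 array of 2-month vehicle mice and 0 of 2-month THC mice. Some genes of this list read lower on slide 1 and others higher, as described further on. The part of the slide in these counts was not tested. Hspa1a, the stress-inducible Hsp70, read 7.32, 7.14, 7.34, 7.002 and 6.81 in 12-month THC mice, against 6.94, 7.67, 7.09, 6.98 and 7.26 in 12-month vehicle mice. Hspa1a read 6.74, 6.87 and 7.25 in 2-month THC mice, against 7.71, 6.51 and 6.74 in 2-month vehicle mice. The groups overlapped at both ages, with differences of -0.06 ± 0.21 at 12 months and -0.03 ± 0.27 at 2 months. Hspb1, a small heat shock protein that is also induced by stress, read 6.17, 6.37, 6.84, 6.61 and 6.04 in 12-month THC mice, against 6.13, 6.47, 6.72, 6.41 and 7.66 in 12-month vehicle mice, where 1 vehicle array stood highest. Hspb1 differed by -0.27 ± 0.23 at 12 months and by 0.23 ± 0.30 at 2 months. Dnaja1, a J protein of the cytosol, differed by -0.01 ± 0.23 at 12 months and by 0.27 ± 0.30 at 2 months. Hspa8 differed by 0.10 ± 0.11 and 0.03 ± 0.14 at the same ages. A second probe of Hspa8 gave 0.45 at 12 months and 0.69 at 2 months, and another gave 0.41 and -0.41. With that last probe, age in THC mice (0.73) and the difference of the THC responses (0.83) had an unadjusted p under 0.05, where the main probe gave -0.06 and 0.06.

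Endoplasmic reticulum chaperones (8 tested of 10) were higher in 6 and lower in 2 cases for THC at 12 months, with a median of 0.07, and higher in 4 and lower in 4 for THC at 2 months (-0.02). Hspa5, the main Hsp70 of that compartment, read 4.67, 5.83, 5.58, 5.61 and 5.49 in 12-month THC mice, against 4.73, 4.52, 5.23, 5.56 and 5.63 in 12-month vehicle mice, a difference of 0.30 ± 0.26 that was 0.13 with the slide as a block. It was detected on 4 of these 5 THC and 3 of these 5 vehicle arrays, so the difference rests partly on signals near background. Hsp90b1, the Hsp90 of the compartment, differed by 0.11 ± 0.16 at 12 months and by 0.01 ± 0.21 at 2 months. These 2 genes and Dnajc3 carry the stress element shown above, and Dnajc3 differed by 0.06 ± 0.16 for THC at 12 months.

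Mitochondrial chaperones (8 of 8 tested) were lower with age in 6 of 8 cases in vehicle mice (median -0.11) and in 6 of 8 in THC mice (-0.07). In either comparison 0 had an unadjusted p under 0.05, beside 4.56% and 7.33% of all probes. Hspa9 read 12.12, 11.83, 11.98, 11.94 and 11.96 in 12-month THC mice, against 12.04, 12.06, 11.91, 12.07 and 11.89 in 12-month vehicle mice, a difference of -0.03 ± 0.09. Hspd1 differed by 0.18 ± 0.20 at 12 months and 0.13 ± 0.26 at 2 months, and Hspe1 by 0.01 ± 0.28 and 0.23 ± 0.36. The 7 chaperonin subunits tested of 8 were higher in 6 and lower in 1 case for THC at 2 months (median 0.17, and 0.04 with the block) and higher in 4 and lower in 3 at 12 months (0.08, and 0.0004 with the slide as a block).

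The J proteins of vesicles and neurons were 5 tested of 6. Dnajc5, the cysteine string protein of synaptic vesicles, read 11.88, 11.69, 11.79, 11.72 and 11.66 in 12-month THC mice, against 11.96, 12.03, 11.67, 11.71 and 11.86 in 12-month vehicle mice, and 11.83, 11.74 and 11.85 in 2-month THC mice, against 11.97, 11.68 and 11.62 in 2-month vehicle mice. The groups overlapped at both ages, with differences of -0.09 ± 0.11 and 0.05 ± 0.14. Dnajc6, the auxilin that recruits Hspa8 to clathrin coats, averaged 12.64 ± 0.24 in 12-month THC mice and 12.81 ± 0.27 in 12-month vehicle mice (SD, n = 5 each). The Dnajc genes as a whole were lower in 18 and higher in 5 cases for THC at 12 months (median -0.05), and higher in 15 and lower in 8 for age in vehicle mice (0.07), which share the 12-month vehicle arrays. The Dnajb genes were lower in 7 and higher in 2 cases for age in vehicle mice (-0.23) and higher in 6 and lower in 3 for THC at 12 months (0.11). The Bag genes were higher in 4 and lower in 2 for THC at 12 months (0.03), with Bag1, which binds Hsp70, at 12.16 ± 0.14 in 12-month THC mice and 12.22 ± 0.10 in 12-month vehicle mice. These counts were not tested and were taken without a slide block. The Dnajc genes averaged 8.30 to 8.36 on the 4 arrays of slide 1, and up to 8.28 on the other arrays. Slide 1 held 2 arrays of 12-month vehicle mice and 1 of 12-month THC mice. The part of the slide in these counts was not tested.

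More chaperone genes passed a test for slides than for groups. In this test of the slide terms beside the groups, chosen after the data were seen, 19 of the 70 genes passed an adjusted p of 0.05 (27.1%, beside 22.2% of all probes). The fitted shift of slide 1 against the other slides was negative for 12 of them (17.1%, beside 12.9% of all). It was positive for 7 (10%, beside 9.26% of all). The sign alone was counted, so another slide may carry the difference. For Hspb8 the shift was -0.08 ± 0.27 (SE), and slides 1 to 4 averaged 9.05, 9.51, 9.31 and 8.46. Hsp90aa1, the inducible Hsp90 of the cytosol, read 8.29 on the slide 1 array of 12-month THC mice, against 10.22, 10.23, 10.11 and 9.60 on their other arrays. In 12-month vehicle mice it read 8.53 and 7.90 on slide 1, against 9.93, 9.89 and 10.03 elsewhere. The shift of slide 1 was -1.71 ± 0.19 (SE), and the test of all slide terms together gave Hsp90aa1 an adjusted p of 0.000116. THC differences of Hsp90aa1 at 12 months were 0.43 ± 0.47 over all arrays and -0.05 with the slide as a block. At 2 months they were 0.06 ± 0.61 over all arrays and -0.60 with the block (adjusted p = 0.463), where 1 THC array on slide 4 read 8.91, against 10.08 and 9.82 on the other 2.

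Dnajb4, a heat-inducible J protein, was lower on slide 1 by a shift of -1.68 ± 0.29. The shift was -0.94 ± 0.15 for Hspe1, -0.90 ± 0.20 for Cct5, -0.90 ± 0.13 for Hspa5, -0.85 ± 0.13 for Cct8, -0.81 ± 0.22 for Hspa4, an Hsp110 exchange factor, and -0.81 ± 0.13 for Dnaja2. Slide 1 averaged 4.64 for Hspa5, 4.61 for Hspa4, 5.00 for Cct5 and 5.01 for Dnajb4. These 4 genes were not detected on all arrays, so their shifts rest partly on signals near background. Hspa4l was higher on slide 1 by 0.70 ± 0.17, Dnajc12 by 0.54 ± 0.17 and Hspb6, a small heat shock protein, by 0.54 ± 0.20. Hspd1 and Hspe1, which share a promoter, were both lower on slide 1, Hspd1 by a shift of -0.58 ± 0.13.

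**Figure D5:**
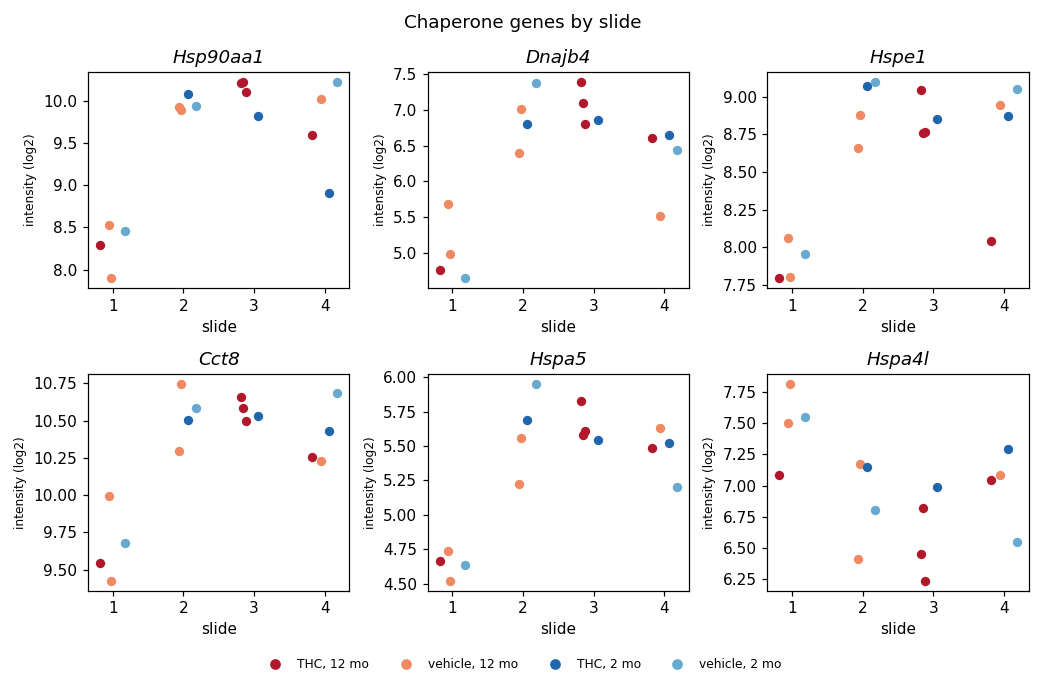
Normalized intensity (log2, vertical axes, each with its own range) of 6 chaperone genes on the 4 slides, 1 point per array, coloured by group. The 4 arrays of slide 1 are lowest for Hsp90aa1 (7.90 to 8.53), Cct8 and Hspa5, and 1 array of slide 4 is among the low ones for Hspe1.

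Probes of 1 gene differed in their slide shift. The main probe of Hspa8 shifted by -0.20 on slide 1 and another by -1.56. The shift was 0.70 for the main probe of Hspa4l and -1.20 for another, 0.44 and -1.03 for Dnajc2, and -1.68 and 0.01 for Dnajb4. For Hsp90aa1 (-1.71 and -1.26) and Dnaja2 (-0.81 and -0.93) the probes shifted alike. Across the group comparisons, 34 other probes of 27 genes could be set beside the main ones, and the sign was the same for 21 of 34 in THC at 12 months, 18 of 34 in THC at 2 months, 23 of 34 in age in vehicle mice, 21 of 34 in the difference of the THC responses, 20 of 34 in age in THC mice and 15 of 34 in 12-month THC against 2-month vehicle mice.

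Genes of protein quality control outside the 70 gave 43 tested of 49 listed, and 0 passed the adjusted threshold. For THC at 12 months 17 were higher and 26 lower (median -0.07) with 2 at an unadjusted p under 0.05, both lower, a share near the 4.77% of all probes. Serpinh1, the collagen chaperone of the endoplasmic reticulum, read 9.06, 8.07, 8.74, 8.17 and 8.39 in 12-month THC mice, against 8.92, 9.23, 8.62, 8.89 and 9.39 in 12-month vehicle mice, a difference of -0.52 ± 0.19 (SE, adjusted p = 0.916). Ddit3, a stress transcription factor, read 7.66, 6.75, 7.25, 7.13 and 6.99 in 12-month THC mice, against 7.93, 7.86, 7.36, 7.33 and 8.08 in 12-month vehicle mice, a difference of -0.56 ± 0.20 (SE, adjusted p = 0.916). In the fit with the slide block they differed by -0.33 and -0.54. Markers of meninges and fibroblasts, cells that make collagen, (8 of 8 tested) averaged 6.94 to 7.62 in 12-month THC mice, against 7.65 to 8.08 in 12-month vehicle mice, and their part in the values of Serpinh1 and of the chaperone genes was not tested. Cryab, a small heat shock protein of glia, differed by 0.44 ± 0.23, Vbp1, a prefoldin subunit, by 0.44 ± 0.33, and Tcp1, the chaperonin subunit without a Cct symbol, by 0.17 ± 0.15. On slide 1 Vbp1 read 7.10 in 12-month THC mice and 7.58 and 7.07 in 12-month vehicle mice. On the other arrays of these groups it read 7.84 to 8.74, and the part of the slide was not tested.

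For THC at 2 months 22 were higher and 21 lower (median 0.02). Calr, a lectin chaperone of the endoplasmic reticulum, read 8.85, 8.52 and 8.17 in 2-month THC mice, against 9.48, 9.14 and 9.06 in 2-month vehicle mice, a difference of -0.71 ± 0.27 (SE, adjusted p = 0.781). Pdia4, a disulfide isomerase, differed by -0.37 ± 0.17, Atf6, a sensor of unfolded proteins, by 0.37 ± 0.17 and Hsf2, a heat shock factor, by 0.65 ± 0.39. Hsf2 read 6.06, 5.95 and 5.76 in 2-month THC mice, against 4.47, 5.78 and 5.57 in 2-month vehicle mice. The lowest value was that of the slide 1 array, and the part of the slide was not tested. For age in vehicle mice 17 were higher and 26 lower (-0.03). Pdia4 read 8.26, 8.38, 8.78, 8.56 and 8.78 at 12 months, against 8.93, 8.97 and 8.87 at 2 months, a difference of -0.37 ± 0.15 (SE, adjusted p = 1), with every array at 12 months below those at 2 months. Hsf4 differed by 0.54 ± 0.24, Atf6 by 0.26 ± 0.15, Creld2 by -0.41 ± 0.22 and Cryab by -0.46 ± 0.26. Hsf1 was not analysed here.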

How the data were processed

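Mouse hippocampus RNA of 16 samples was measured on Illumina arrays, 1 per sample. The deposited scanner table gives 1 intensity on the log2 scale per probe and array, not normalized between arrays, per the file headers and the values. Detection p-values stand in further deposited columns, per the file headers, and in 1 array 26 of its cells held text and were treated as missing. Values of the deposited series matrix are on the log2 scale and matched quantile normalized scanner values within 0.00713. The submitters' processing notes name Partek, without steps or version in the sources used here. Probe genes came from the platform annotation, and all 70 member symbols were matched to RefSeq by Entrez ID.

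Intensities were background corrected and quantile normalized (neqc, offset 16) in limma 3.58.1 (R 4.3.3). Probes detected at p under 0.05 on at least 3 arrays were fitted, 22625 of 45281, with 1 mean per group (lmFit, eBayes), two-sided tests and Benjamini-Hochberg adjustment over all fitted probes. The fit was tested on simulated data. Groups came from the labels and slides from the array barcodes. Named were the core chaperones, the members with the smallest p per comparison (6 or 3 in each direction), the brightest and dimmest of each family, the most and least variable, those near the detection limit, and outside genes by the same kind of rule. Members, lists and rules were chosen with earlier results of these data known, and the slide test after the data were seen. Alternatives were other normalizations, filters, slide terms, variance models, array weights, probes and left-out arrays. Plots were made in matplotlib 3.10.9 under Python 3.11.15.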

Additional observations from a re-analysis of the deposited data

Results flagged for a closer look

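Of 144 gene or family values per group with 5 arrays, 5 held 1 array far from the other 4 by Dixon's criterion, and chance gives about 1 in 20 groups. They were found in 12-month mice, the only groups large enough to test. Hspb8 read 8.454 on THC replicate 5, a slide 4 array, against 9.307 to 9.485 on the other 12-month THC arrays. The slide 4 arrays of the other groups read 8.75 (2-month vehicle), 8.39 (2-month THC) and 8.25 (12-month vehicle). Each was the lowest of its group for Hspb8. The Hsp90 genes averaged 9.93 on THC replicate 1, a slide 1 array, against 10.76 to 11.08 on the others. Dnajc11 read 5.684 on vehicle replicate 5, also a slide 4 array, against 6.151 to 6.263 on the other 12-month vehicle arrays. Cct6a read 11.13 on the same array, against 11.39 to 11.46 on the others. The Bag genes averaged 8.769 on vehicle replicate 2, a slide 1 array, against 8.881 to 8.913 on the others.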

How the results depend on the processing

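With the slide as a fixed block 0 of the 70 genes passed the adjusted threshold, as over all arrays without it. Medians of the 70 genes moved by less than 0.0454 under every alternative, except within slide 4. That value is the SD of the mean log2 value of the 70 genes between arrays of a group. It is not the spread of single genes. Within slide 4 the THC difference at 12 months had a median of 0.036 and age in THC mice one of 0.015. The median for 12-month THC against 2-month vehicle mice was 0.021 there. Counts moved more, and the causes were not tested unless the alternative itself removed arrays or probes. Counts of chaperone genes at an unadjusted p under 0.05 are given below with those of probes past the adjusted threshold. The share of all probes at an unadjusted p under 0.05 moved too. The share of chaperone genes was above it in 15 of 68 refits with another setting and in 10 of 112 with 1 array left out. Those 15 used quantile values, the series matrix, no filter, array weights or no slide 1. With the slide as a fixed block THC at 12 months gave 4 chaperone genes and 31 probes, THC at 2 months 6 genes, and there were 6 for the difference of the THC responses, 2 probes for age in vehicle mice, 8 genes for age in THC mice, 5 genes and 2 probes for 12-month THC against 2-month vehicle mice, and 8 genes and 10 probes for any group difference. The chaperone shares under the block were 5.71% (11.5% of all probes), 8.57% (10.1%), 8.57% (10.4%), 4.29% (8.7%), 11.4% (12.8%), 7.14% (10.5%) and 11.4% (14.4%), taken in the order of the comparisons just named. As a random block (correlation 0.331) the same comparisons gave 1 gene, 4 genes, 4 genes, 4 genes with 2 probes, 6 genes with 2 probes, 2 genes, and 5 genes with 5 probes. Chaperone shares were then 1.43% (7.96% of all probes), 5.71% (8.83%), 5.71% (9.17%), 5.71% (8.05%), 8.57% (11.4%), 2.86% (7.44%) and 7.14% (11.5%). Without slide 1 the gene counts were 1, 4, 5, 5, 7, 1 and 6 in that order, with 0 probes in the last 2. As shares these were 1.43% (4.4% of all probes), 5.71% (6.86%), 7.14% (5.94%), 7.14% (5.28%), 10% (8.98%), 1.43% (4.91%) and 8.57% (6.48%). Quantile normalization without background correction and the series matrix each gave 6 genes for THC at 2 months, 3 probes for age in vehicle mice, 6 genes and 1 probe for age in THC mice, and 5 genes and 3 probes for any difference. These gene counts were 8.57% (6.12% of all probes), 8.57% (7.24%) and 7.14% (6.08% and 6.07%). Without a filter the same 4 comparisons gave 5 genes, 2 probes, 6 genes and 1 probe, and 5 genes and 3 probes. The gene counts were then 7.14% (5.73% of all probes), 8.57% (5.84%) and 7.14% (5.69%). The stricter filter (detection p under 0.01 on at least 8 arrays) gave 1 gene each for THC at 12 months, the difference of the THC responses and age in vehicle mice, 2 probes for the last and 2 for any difference. Each such gene was 1.64% of those left, beside 4.8%, 5.18% and 4.5% of all probes. Array weights gave 6 genes for THC at 12 months, 5 genes after THC at 2 months, 5 for the difference, 6 genes and 1 probe for age in THC mice, 1 gene for 12-month THC against 2-month vehicle mice and 3 probes for any difference. In that order the genes were 8.57% (9.44% of all probes), 7.14% (6.5%), 7.14% (6.67%), 8.57% (10.1%) and 1.43% (6.3%). A variance trend with robust variances gave 1 probe for age in vehicle mice, 0 for 12-month THC against 2-month vehicle mice and 3 for any difference. With the arrays of the compared groups alone, age in vehicle mice gave 1 gene, and 12-month THC against 2-month vehicle mice 1 gene and 0 probes. The gene was 1.43% each time, beside 3.54% and 4.47% of all probes. At an adjusted p under 0.1 there were 2 probes for age in vehicle mice and 3 for any difference. The next brightest probe gave 1 gene each for THC at 12 months, the difference and age in vehicle mice, and 5 for age in THC mice. In the main fit 4.77%, 5.21%, 4.56% and 7.33% of all probes were called in these comparisons, in that order. With the brightest of the probes that pass the detection rule no count moved by over 1.5 times.

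Over all other probes the counts of equal signs are those of the report. Among the genes named by p for a comparison, signs turned with the next brightest probe for Dnajb3 (-0.037), Hspa4l (0.24), Dnajc27 (0.060) and Dnajc2 (0.55) in THC at 12 months, Dnajc8 (-0.015) and Dnajb6 (0.031) in THC at 2 months, Dnajb6 in the difference (-0.039) and in age in THC mice (-0.036), and Dnaja3 (-0.17) in age in vehicle mice. Within slide 4, THC at 12 months had 25 of the 70 signs turned and THC at 2 months 31, with 16 for age in vehicle mice, 19 for age in THC mice and 31 for 12-month THC against 2-month vehicle mice. Among the genes named by p, these were Dnajb3 (-0.079) and Cct7 (-0.32) in THC at 12 months, Cct2 (-0.061) in THC at 2 months, Dnajc9 (-0.10), Hspa13 (-0.20), Hsph1 (0.022) and Bag2 (0.18) in age in vehicle mice, Dnajc4 (0.062) in age in THC mice, and Hspa12a (-0.30) and Hspa12b (0.18) in 12-month THC against 2-month vehicle mice. At 12 months Hspa5 (-0.14), Hsp90aa1 (-0.42) and Hspe1 (-0.90), named as core chaperones, turned for THC within slide 4 as well. Among the genes named by p, signs turned within slide 2 for Dnajc8 (-0.00094) and Hspa1l (-0.10) in THC at 2 months and Dnajb5 (0.12) in age in vehicle mice, within slide 3 for Dnajb6 (-0.072) in age in THC mice, and within slide 1 for Dnajb9 (-0.17) in 12-month THC against 2-month vehicle mice.

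Leaving out 1 array gave 1 to 7 genes for THC at 12 months (7 without THC replicate 1, 5 without vehicle replicate 3, and 1 without THC replicate 2 or 4 or vehicle replicate 2), and 1 to 7 for THC at 2 months (7 without vehicle replicate 2, 4 without vehicle replicate 1 or 12-month THC replicate 1, and 1 without vehicle replicate 3 or THC replicate 2 or 3). It gave 2 to 5 genes for the difference (5 without 2-month vehicle replicate 1, 4 without replicate 2), 1 to 4 genes and 0 to 1 probes for age in vehicle mice (4 genes without 2-month replicate 3, 1 gene without 12-month replicate 5, 1 probe without 12-month replicate 3), and 2 to 5 genes for age in THC mice (5 without 12-month replicate 1 or 5 or 2-month replicate 2). For 12-month THC against 2-month vehicle mice it gave 0 to 2 genes and 0 probes, whichever array was left out. At the highest counts THC at 12 months had 9.61% of all probes (10% of chaperone genes) and THC at 2 months 8.72% (10%), with 6.22% for the difference (7.14%), 4.57% for age in vehicle mice (5.71%), and 6.26% to 6.76% for age in THC mice (7.14%). For any difference it gave 1 to 3 genes (1 without 2-month THC replicate 1 or 3) and 0 to 2 probes (2 without 12-month vehicle replicate 3). No paired analysis was made because the labels give no pairing of samples between groups. Replicate numbers used here count the arrays of a group in the order of the samples and are not from the labels. Precision is limited by 3 to 5 arrays per group and, for the 17 genes not detected on all arrays, by signal near background.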
